A study of Homo sapiens with 2 samples.

Results

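The genes described here are 8 members of the androgen receptor coregulator and lineage group, examined for peaks of methylated ERG (mERG) in VCaP cells. They are the lineage factors FOXA1 and HOXB13, the coactivators NCOA1, NCOA2 and NCOA3, the acetyltransferases EP300 and CREBBP, and the corepressor NCOR1. Members were taken from a fixed list of symbols, and every peak whose nearest annotated transcription start site (TSS) belongs to one of them was counted for it. Of the 18070 peaks in the list, which name 5011 genes, 70 peaks (0.387%) name 7 of the 8 genes, and a gene without a row counts as no peak detected. VCaP cells come from a prostate cancer, express the androgen receptor and make ERG from a TMPRSS2-ERG gene fusion. Chromatin was cut with MNase and sonication to fragments of about 200 bp, and libraries were read as 75 bp single ends. The ChIP library was made with a custom rabbit polyclonal antibody raised against an ERG peptide mono-methylated at lysine K362, in a stretch the study describes as similar to the one around K27 of histone H3. The control library is called input in one label and IgG in another, so its kind was not settled. With 1 library of each kind there is no replicate, no test between conditions was possible, and the peaks of 1 gene are not replicates of one another. The read depth of both libraries is unknown from the peak list.

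The androgen receptor is a ligand-activated transcription factor whose output in prostate cells depends on the proteins it meets on chromatin. FOXA1, a pioneer factor, and HOXB13, a homeodomain factor, act at the sites that the receptor uses in the prostate lineage. The receptor then recruits coactivators of the steroid receptor coactivator family, which bring in the acetyltransferases EP300 and CREBBP, whereas NCOR1 holds a histone deacetylase complex that represses the same genes.

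The following stretches reach 100 bp to either side of the centre of the strongest peak of 5 of the genes and are shown because ERG, an ETS family factor, binds DNA around the letters GGAA, so that a reader can see what lies under the peaks. They were read from the hg19 plus strand, and capitals mark GGAA or, on the other strand, TTCC. The stretch of FOXA1 (chr14:37962296-37962496) lies downstream of the gene in intron 12 of a MIPOL1 transcript, that of NCOA1 (chr2:24876999-24877199) in its intron 2, and those of EP300 (chr22:41494855-41495055), CREBBP (chr16:3912709-3912909) and NCOR1 (chr17:16094757-16094957) in intron 1 of the gene. The centre of the EP300 peak is in a MIR repeat and that of NCOR1 in an L1MEf repeat.
FOXA1: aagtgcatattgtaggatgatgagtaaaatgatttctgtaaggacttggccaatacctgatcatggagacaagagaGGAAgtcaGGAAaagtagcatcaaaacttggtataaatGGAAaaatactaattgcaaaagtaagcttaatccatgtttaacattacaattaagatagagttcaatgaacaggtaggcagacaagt
NCOA1: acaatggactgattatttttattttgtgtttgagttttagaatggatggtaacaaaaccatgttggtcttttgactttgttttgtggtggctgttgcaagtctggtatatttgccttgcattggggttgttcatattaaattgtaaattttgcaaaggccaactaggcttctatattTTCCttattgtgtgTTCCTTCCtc
EP300: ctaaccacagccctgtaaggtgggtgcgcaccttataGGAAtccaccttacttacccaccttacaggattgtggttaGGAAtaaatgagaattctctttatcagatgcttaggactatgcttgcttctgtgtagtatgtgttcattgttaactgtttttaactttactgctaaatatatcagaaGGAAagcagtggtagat
CREBBP: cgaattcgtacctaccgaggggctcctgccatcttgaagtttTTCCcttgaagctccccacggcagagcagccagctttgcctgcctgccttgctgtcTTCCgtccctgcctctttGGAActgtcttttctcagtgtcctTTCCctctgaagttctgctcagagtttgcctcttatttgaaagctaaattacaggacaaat
NCOR1: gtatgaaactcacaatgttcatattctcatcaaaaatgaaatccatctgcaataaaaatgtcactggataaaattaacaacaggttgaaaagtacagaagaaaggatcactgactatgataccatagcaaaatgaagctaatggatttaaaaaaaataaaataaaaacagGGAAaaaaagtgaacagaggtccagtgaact

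GGAA occurs 3 times in the stretches of FOXA1, NCOA1 and EP300, 4 times in that of CREBBP and 1 time in that of NCOR1, counting both strands. The stretches of NCOA2 and NCOA3 are not printed, and in the same window the strongest NCOA2 peak holds GGAA 1 time and the strongest NCOA3 peak 0 times, so the 5 shown do not stand for all 7 named genes. The ETS core was searched as CCGGAAGT on both strands, GGAA being kept exact and 1 of the other letters allowed to differ, and none of the 5 stretches holds it. Over all 70 peaks that name a member, 0 held this motif within 100 bp of the peak centre, and the upper end of the Wilson 95% interval is 5.20%. The same windows held it in 2.62% of all 18070 peaks (interval 2.39 to 2.86%), a share that lies inside the interval of the members. Searched over whole peaks, the motif was found in 2 of the 70 (2.86%), 1 naming FOXA1 and 1 naming NCOA2, against 6.39% of all peaks. GGAA alone was within 100 bp of the centre in 59 of the 70 (84.3%) and in 83.7% of all peaks. These intervals cover counting error only, and a match or its lack describes letters in a window, not binding. They also treat peaks as independent, although 41 of the 70 name NCOA2, so the interval of the members was not read as a test.

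At least 1 peak named 7 of the 8 genes, while 21.0% of 19443 protein-coding RefSeq genes were named by a peak. By the other assignment, in which a peak counts for a gene when its centre lies in the gene body, 6 of the 8 genes held a peak, against 19.6% of 20162 protein-coding genes in GENCODE. Gene length differs between the members and the background. The median length was 155.3 kb for the 8 genes and 27.5 kb for protein-coding genes, of which 40.4% were named by a peak in the length group of NCOA3 and CREBBP (10 groups of equal size) and 6.39% in that of FOXA1 and HOXB13. The count of 7 is therefore given as a description and was not read as a property of the group. The 70 peaks are unevenly spread. NCOA2 was named by 41 (58.6%), NCOR1 by 9, FOXA1 by 8, NCOA3 by 7, EP300 by 3, NCOA1 and CREBBP by 1 each, and HOXB13 by 0.

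**Figure D1:**
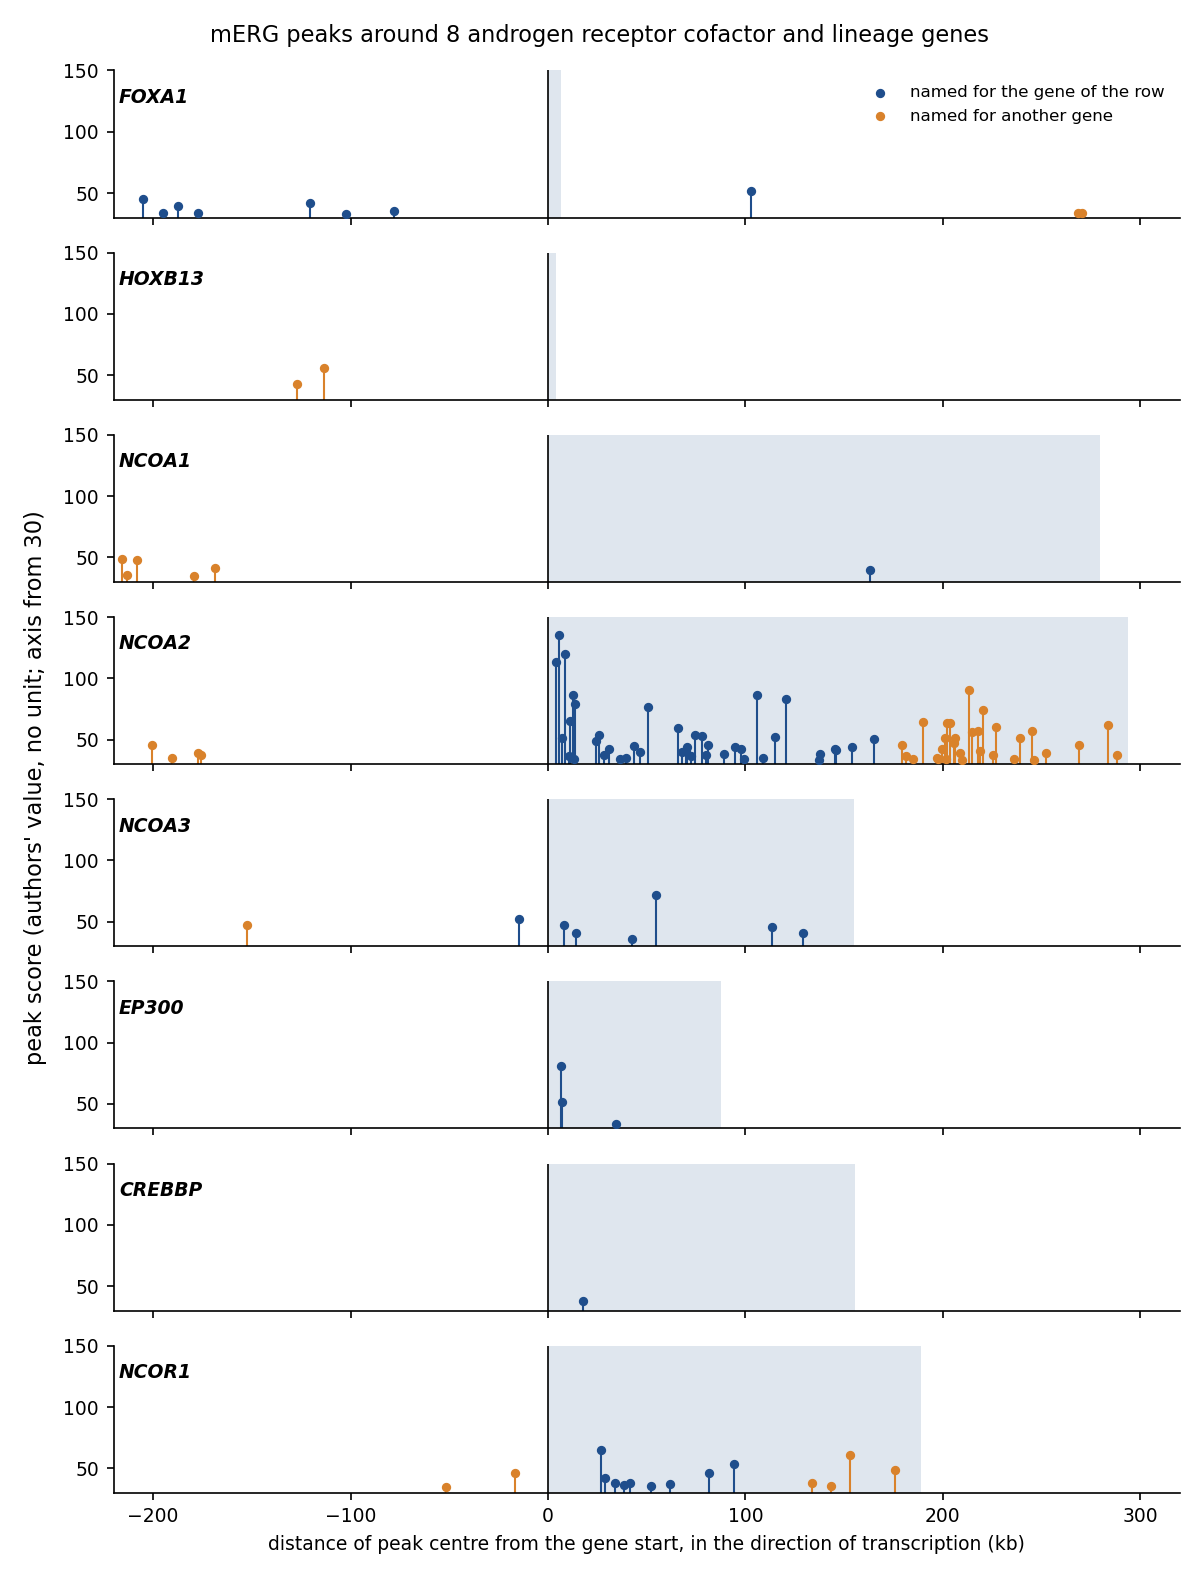
Position and score of every mERG peak from 220 kb before to 320 kb after the start of each of the 8 genes. The x axis gives the distance of the peak centre from the GENCODE gene start in kb in the direction of transcription, the y axis the authors' peak score from 30 upward, the shaded area the gene body, blue the peaks that name the gene of the row and orange those that name another gene. NCOA2 holds 71 peaks in its body, of which 30 carry another name, while the bodies of FOXA1 and HOXB13 hold 0.

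The score is the authors' value for each peak and, by the convention of MACS, is −10 times the log10 of the p-value of the peak. It was used to rank peaks within this list. By that convention, the lowest score in the list, 33.01, stands for a MACS p-value of 0.0005, so the list reaches down to weak peaks. A score of 50 or more, a cut chosen after seeing the data, was reached by 23 of the 70 peaks. These include 1 of the 8 FOXA1 peaks and neither the NCOA1 nor the CREBBP peak. The 70 peaks had a median score of 42.1 (range 33.1 to 135.7), and all peaks had a median of 40.9 (range 33.01 to 592.2). Of the 70, 40 were in the stronger 50% of the list, 26 of them at NCOA2. Without NCOA2, the other 29 peaks had a median of 40.5 and 14 were in the stronger 50%. Introns held 62 of the 70 peaks (88.6%, against 87.6% of all peaks), and the other 8 were intergenic (11.4%, against 7.53%). All 41 NCOA2 peaks were in introns, and of the other 29 peaks 72.4% were in introns and 27.6% intergenic. Promoter-TSS regions held 0, as against 0.277% of all peaks. By the TSS that the list used, the closest peak, at NCOR1, lay 3.10 kb away. Measured from GENCODE gene starts, the closest was at NCOA2, 3.84 kb away. The first intron held 42 of the 70 (60.0%), while it held 28.1% of all peaks. This share rests on NCOA2, where 32 of 41 peaks were in intron 1. For the other 29 peaks the share was 34.5%. The naming rule enters these shares, since peaks far into NCOA2 carry the name of another gene. By gene body, the first intron held 32 of 71 peaks at NCOA2 (45.1%) and 42 of 95 over all members (44.2%). Intron lengths were not set beside these shares.

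FOXA1, the pioneer factor, had 8 peaks that name it and none inside it. The gene (chr14:38058757-38065264, minus strand) is 6.51 kb long, and the closest peak centre was at −78.1 kb from its start, negative values being upstream. Upstream peaks numbered 7, all intergenic, from −79.1 to −205.9 kb of the TSS that the list used. The farthest of these (chr14:38270053-38270402) had a score of 45.2, and the lowest of all 8 (chr14:38167376-38167608) had 33.1. Downstream there was 1 peak, at chr14:37962186-37962606, which was also the strongest, with a score of 51.7. It lay 101.9 kb past the TSS, in intron 12 of a transcript of MIPOL1, the gene next to FOXA1 and the one among its 3 protein-coding neighbours within 500 kb that was itself named by peaks (4). The median score of the FOXA1 peaks was 37.4, below the median of the list. In the FOXA1 length group on chromosome 14, 6 of 58 genes, FOXA1 included, were named by a peak, and 8 was the highest number. The peaks credited to FOXA1 are thus distal ones, for which FOXA1 is the nearest start site, and no peak lay within 50 kb of that site.

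HOXB13, a homeodomain factor of the prostate lineage, was named by 0 peaks and held 0 in its body (chr17:46802125-46806112, minus strand, 3.99 kb). Its chromosome had the highest peak density of the 24 chromosomes, 15.3 per Mb, and the 1 Mb on either side of the gene held 30 peaks (15 per Mb). The peak nearest to its start was at −113.6 kb, named CALCOCO2 and had a score of 56.0. Of 23 protein-coding neighbours within 500 kb, CALCOCO2 alone was named by peaks (2). In its length group, 13 of 158 genes on the chromosome were named by a peak. A count of 0 says that no peak was detected in this list at an unknown depth, not that ERG is absent from the gene.

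The steroid receptor coactivators NCOA1, NCOA2 and NCOA3 bind the receptor through the same kind of motif and are close relatives, but their peak counts differed. NCOA1 (chr2:24714123-24993571, plus strand, 279.4 kb) had 1 peak, NCOA2 (chr8:71022017-71316043, minus strand, 294.0 kb) had 41 and NCOA3 (chr20:46130631-46285621, plus strand, 155.0 kb) had 7. By peak centres in the gene body the counts were 1, 71 and 6, or 0.358, 24.1 and 3.87 per 100 kb of gene. NCOA1 and NCOA2 are of nearly the same length, so the difference between them remains per unit of length. Copy number in VCaP cells was not analysed here, and its part in these counts was not tested. The density of peaks outside the genes, within 1 Mb on either side, was 14.5 per Mb for NCOA1, 6 for NCOA2 and 2.50 for NCOA3. Over their whole chromosomes the order was the opposite, with 3.63 peaks per Mb for NCOA1, 10.9 for NCOA2 and 13.2 for NCOA3.

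The single NCOA1 peak (chr2:24876987-24877211) had a score of 39.5, under the median of the list, and lay in intron 2 of 20. It was 69.8 kb from the TSS that the list used and 163.0 kb from the start in GENCODE, which is 93.2 kb further upstream. The surroundings of NCOA1 were not short of peaks. The 1 Mb on either side, outside the gene, held 29 (14.5 per Mb). Of 18 protein-coding neighbours within 500 kb, 7 were named by a peak, among them DNMT3A, a DNA methyltransferase, with 7 peaks and ITSN2 with 5. In the NCOA1 length group on chromosome 2, 69 of 170 genes were named by a peak, and the highest number was 11.

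NCOA2 was the member with the most peaks, and 14 of the 5011 named genes had more. All 41 peaks that name it were in introns, 32 in intron 1 and 9 in intron 2. The gene body held 30 further peaks that the list names for PRDM14, a gene beyond the end of NCOA2 whose TSS is nearer to them. They lay 179.4 to 288.0 kb from the NCOA2 start and between −44.5 and −153.1 kb from the PRDM14 TSS, and 0 peaks lay in the body of PRDM14. Of the 71 peaks in the body, 70 were in introns, 18 of them in intron 4, and 1 was in an exon. The median gap between neighbouring peaks was 1.81 kb, the narrowest 15 bp and the widest 16.3 kb. Peaks that nearly touch were each counted, so these counts are not counts of separate sites. Together the peaks covered 45.9 kb, or 15.6% of the gene, whereas they covered 2.03% of NCOR1. Outside the gene, the 1 Mb on either side held 12 peaks (6 per Mb), so that 85.5% of the 83 peaks in the whole window were within NCOA2. Besides PRDM14, LACTB2 and TRAM1 had the most peaks among its 6 protein-coding neighbours within 500 kb, with 4 each.

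Scores at NCOA2 were highest near the start of the gene. The 3 strongest peaks of all members lay there in intron 1, at chr8:71309399-71311285 (score 135.7, 5.68 kb from the TSS), chr8:71306687-71307704 (119.9, 8.83 kb) and chr8:71311815-71312598 (113.6, 3.81 kb). In the list as a whole they ranked 153, 237 and 286. Within 20 kb of the start, 9 peaks had a median score of 79.1. It was 42.1 for the 22 peaks from 20 to 100 kb, 42.2 for the 17 from 100 to 200 kb and 51.0 for the 23 beyond 200 kb. The strongest peak of the far part (chr8:71102254-71103412, named PRDM14, in intron 4) had 90.5. NCOA2 peaks were also wide, with a median of 615 bp against 400 bp in the whole list, and the strongest was 1887 bp. In the NCOA2 length group on the same chromosome, 45 of 100 genes were named by a peak, and the highest number was 43.

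NCOA3 was named by 7 peaks. Of these, 4 were in intron 1, 1 in intron 2 and 1 in intron 8 of 22, and 1 was intergenic, at −14.8 kb from the TSS (chr20:46115620-46115980, score 52.1). The strongest (chr20:46185220-46185573) had a score of 72.0 and lay 54.8 kb from the TSS in an Alu repeat. The gene body held 38.7 peaks per Mb and the 1 Mb on either side of it 2.50, the latter below the 13.2 of its chromosome. In its length group on that chromosome, 28 of 43 genes were named by a peak. Of its 3 protein-coding neighbours within 500 kb, ZMYND8 was named, by 1 peak.

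**Figure D2:**
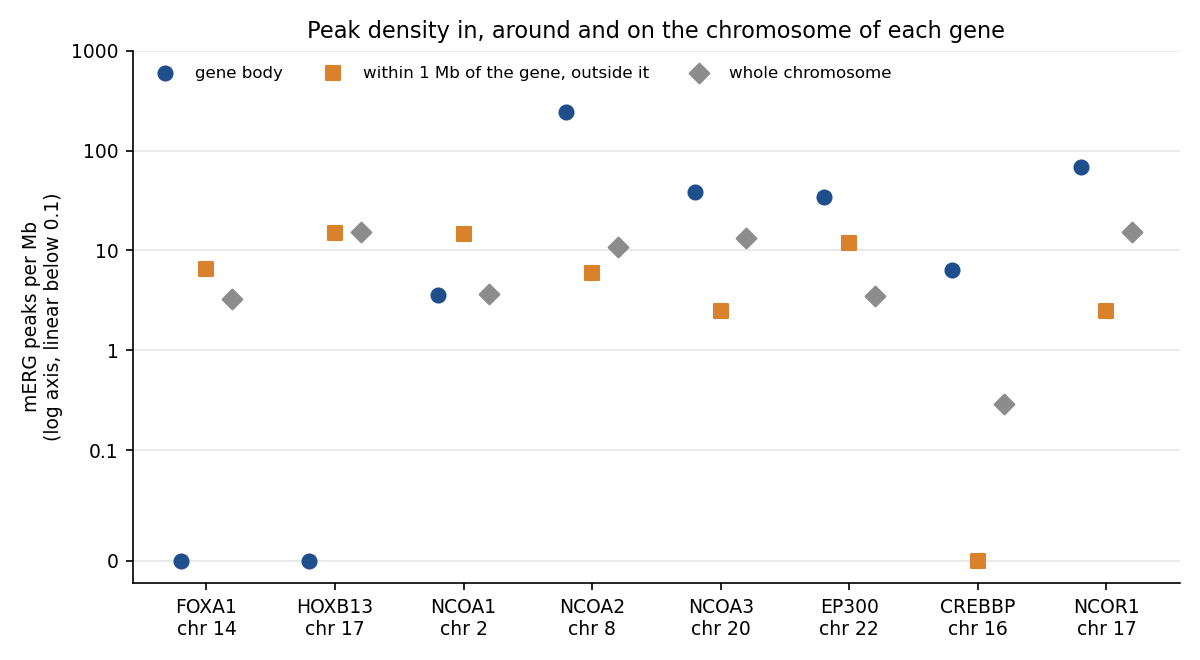
Density of mERG peaks in the body of each gene (circles), within 1 Mb on either side but outside it (squares) and over its whole chromosome (diamonds), in peaks per Mb on a log axis that is linear below 0.1. The NCOA2 body has 241.5 peaks per Mb and its surroundings 6, while CREBBP has 6.42 in its body and 0 around it.

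EP300 and CREBBP are paralogous acetyltransferases that modify histone tails at enhancers. EP300 (chr22:41488596-41576081, plus strand, 87.5 kb) had 3 peaks. In intron 1 of 30 there were 2, at chr22:41494688-41495222 (score 80.6, 6.34 kb from the TSS) and chr22:41495662-41496077 (score 51.5, 7.26 kb), with a gap of 440 bp between them. The remaining one, at chr22:41523092-41523254 in intron 3, had a score of 33.8, close to the lowest in the list. The first of them was the strongest peak of any member other than NCOA2 and ranked 788 in the list. EP300 was the nearest gene for no peak outside its body, and the next peak from its start was at −296.4 kb. Of 21 protein-coding neighbours within 500 kb, SNU13 was named, by 1 peak. Farther out the region was denser than its chromosome, with 24 peaks within 1 Mb outside the gene (12.0 per Mb) against 3.47 per Mb. In the EP300 length group on chromosome 22, 7 of 32 genes were named by a peak, and the highest number was 4.

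CREBBP (chr16:3775055-3930714, minus strand, 155.7 kb) had 1 peak, at chr16:3912648-3912971 in intron 1 of 30, 17.3 kb from the TSS, with a score of 37.9. Its chromosome held 26 peaks in all (0.288 per Mb), the lowest density of any member. The next peak from the CREBBP start was 3637 kb away and named FAM234A, and 0 of 26 protein-coding neighbours within 500 kb were named by a peak. In the CREBBP length group on chromosome 16, 4 of 56 genes were named by a peak, none by more than 1, whereas 40.4% of genes of that length were named over all chromosomes. The lower count at CREBBP than at EP300 therefore stands beside a chromosome where few peaks were called, and what sets that density was not tested.

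NCOR1, the corepressor, was named by 9 peaks and held 13 in its body (chr17:15932379-16121499, minus strand, 189.1 kb, 6.87 per 100 kb). All 13 were in introns. The 4 that do not name it carry the name ZSWIM7, whose TSS lies beyond the end of NCOR1, and they were 133.7 to 176.0 kb from the NCOR1 start. One of these (chr17:15968231-15968593) had a score of 60.8. The strongest, at chr17:16094704-16095010, had a score of 64.8 and was 3.10 kb from the TSS of the list in intron 1 of 44. That TSS is 23.5 kb inside the GENCODE gene, so the same peak was 26.6 kb from the annotated start. The peak nearest to the annotated start, at −16.9 kb, named PIGL (score 46.6). The median score of the 9 peaks was 38.4, under that of the list. NCOR1 lies on the same chromosome as HOXB13, but the 1 Mb on either side of it held 5 peaks outside the gene (2.50 per Mb) against 15.3 per Mb for the chromosome. Of its 20 protein-coding neighbours within 500 kb, 3 were named, ZSWIM7 by 4 peaks and PIGL and TRIM16 by 1 each. In its length group there, 23 of 47 genes were named by a peak, and the highest number was 60.

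**Figure D3:**
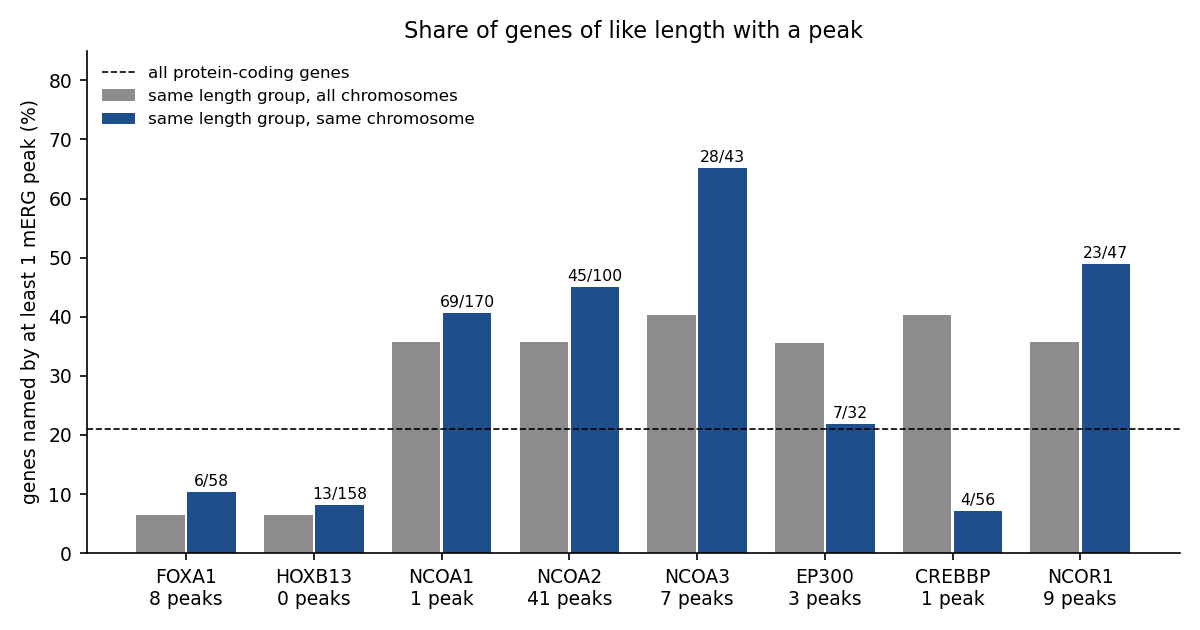
Percent of protein-coding genes named by at least 1 mERG peak in the length group of each member, over all chromosomes (grey) and on the chromosome of the member (blue, with the number of genes named over the number in the group, the member included). The dashed line is the 21.0% of all protein-coding genes, and the share on the member's chromosome runs from 7.14% for CREBBP to 65.1% for NCOA3.

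Other genes of the androgen receptor network were counted from 4 lists of 48 genes in all, of which 22 (45.8%) were named by a peak, against 21.0% of all protein-coding genes. The listed genes had a median length of 54.0 kb, above the 27.5 kb of all, and in the length group that holds this value (39.8 to 58.0 kb) 29.0% of genes were named. The counts of the single lists are descriptions, and the lists differ in length, so 21.0% is not a matched share for each. Median lengths were 72.5 kb for the coactivators and 82.4 kb for the corepressors, in a length group of which 35.6% were named. They were 13.8 kb for the lineage and pioneer factors and 14.6 kb for the receptor chaperones, in a length group of which 12.0% were named. Among the lineage and pioneer factors, 3 of 9 were named. They include FOXP1, a forkhead factor, with 55 peaks and a highest score of 112.3, and GRHL2, a grainyhead factor of epithelial cells on the same chromosome as NCOA2, with 43 and a highest score of 144.9. FOXA2 and FOXA3, the relatives of FOXA1, had 0, as did GATA2 and SOX9, which were singled out after their values were seen. FOXP1 and GRHL2 are 629.3 and 177.3 kb long.

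Among the coactivators, 10 of 20 were named. Of the genes that share the NCOA name without belonging to the steroid receptor coactivator family, NCOA6 had 11 peaks, and NCOA4 and NCOA7 had 1 each. Among the corepressors, 7 of 12 were named. SIN3A, the scaffold of another deacetylase complex, and PIAS1, a SUMO ligase, had 14 peaks each. Among the receptor chaperones, 2 of 7 were named, with 3 peaks in all. FKBP5, a cochaperone gene that androgen induces, was named by 0 peaks but held 6 in its body. It was singled out after this value was seen.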

How the data were processed

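All values come from 1 deposited list of peaks, called by the authors on 1 mERG ChIP library and 1 control library of VCaP cells. The submitters' processing notes name Bowtie2, Picard, HOMER and hg19, and the list header names MACS peaks. The MACS version and threshold are not given in the sources used here. The peak score is the authors' deposited value, and its scale was read from the convention of MACS. Distances to the TSS in the list run from the peak centre. Depth is unknown, so no depth per sample is given.

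Peaks were counted for a gene by the name in the list and, separately, by peak centre in the gene body of GENCODE release 44 on GRCh37, which matches hg19. Lengths were found for 98.2% of protein-coding RefSeq genes, which were split into 10 length groups. RefSeq (GRCh38.p14) gave names only. Motif windows were read from GRCh37, and the search was tested on simulated sequences. The design has no replicate, so it assumed descriptions with no test. The members and lists were chosen with earlier results of these data known. Named genes were all 8 members, the 5 genes of the lists with most peaks, list genes of a member's family, and at most 3 neighbours within 500 kb with the most peaks. A few of these genes are left unreported here. Other names are marked as chosen after their values were seen. The tools were pysam 0.24.0, pandas 2.3.3, NumPy 2.4.6, SciPy 1.17.1 and Matplotlib 3.10.9 under Python 3.11.15.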

Additional observations from a re-analysis of the deposited data

How the results depend on the processing

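No paired analysis was possible because there is 1 ChIP library and 1 control library, and no replicate could be left out. Of the settings first listed for the main results, 6 changed a count by no more than 1.5 times or a share within its interval, and 13 moved it; among settings added after seeing the data these were 2 and 4. With the stronger 50% of peaks, 5 genes were named, by 40 peaks (median 2.5 per gene in place of 5), and 13.2% of protein-coding genes. With peaks within 10 kb of the TSS, 4 genes were named, by 9 peaks, and 9.20% of protein-coding genes. Within 50 kb, 5 genes were named, by 32 peaks, and 18.1% of protein-coding genes. Keeping scores of 50 or more, a setting chosen after seeing the data, left 5 genes, 23 peaks (median 1.5 per gene) and 7.89% of protein-coding genes. These settings keep fewer peaks by construction. By gene body, 6 genes held 95 peaks (median 2 per gene), and 19.6% of protein-coding genes held a peak. NCOA1 and CREBBP had no peak in the stronger 50%, FOXA1 and NCOA1 none within 50 kb, CREBBP none within 10 kb, and FOXA1 none in its body. The strongest peak of each named gene had a median score of 64.8 in place of 42.1. GGAA alone was found at 84.3% of member peaks. The median density over the 8 genes, each with 1 Mb on either side, was 10.6 peaks per Mb. Without the gene itself, also added after seeing the data, it was 6.25. Whole chromosomes gave 7.26, and all peaks of a member's chromosome per Mb of its protein-coding gene bodies had a median of 17.7. The cause was not tested.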
